A study of Mus musculus with 8 samples.

Results

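The 8 genes described here, Col2a1, Acan, Sox9, Comp, Snorc, Col9a1, Matn3 and Cytl1, were followed by symbol through every periosteal cell that was kept, out of 32285 genes in the count tables. The cells came from the femoral and tibial periosteum of C57BL/6J male mice, 16 weeks old, which had been fed normal diet chow (ND) or high-fat diet chow (HFD). No other treatment or allele was named, and both groups shared strain, sex and age. Left femurs and tibias freed of muscle were digested with collagenase and dispase, so the suspension held whatever cells this treatment released from the bone surface. The labels named 4 samples for each diet, but the deposited tables held 1 pooled library per diet with no map from cells to mice.

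With 1 library per diet, no difference between diets could be tested. Each diet was 1 sample, and all intervals below are 95% intervals that cover counting error only, not the spread between mice. The genes were chosen with earlier results of these libraries in view, so their ratios between diets are descriptions.

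Cartilage is built by chondrocytes, which surround themselves with type II collagen fibrils and a gel of the proteoglycan aggrecan. The transcription factor SOX9 switches this programme on, together with SOX5 and SOX6. Periosteum, the connective tissue sheath of bone, contains fibroblasts, osteoblasts and their progenitors, and it can form cartilage during fracture repair. Among the 8 genes, Col2a1 encodes the type II collagen chain and Col9a1 a chain of type IX collagen, which decorates type II fibrils. Acan encodes aggrecan. Comp encodes cartilage oligomeric matrix protein, an adaptor that is also abundant in tendon and ligament, and Matn3 encodes matrilin 3, another matrix adaptor. Snorc encodes a small transmembrane proteoglycan of chondrocytes, and Cytl1 encodes a small secreted protein first known from blood progenitors and later from cartilage.

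In the GRCm38 (mm10) gene models of GENCODE, none of the 8 genes overlapped another annotated gene on either strand. Transcripts outside these gene models were not checked. Col2a1 (ENSMUSG00000022483) lay at chr15:97975602-98004695 on the minus strand. The other genes lay on the plus strand, with Acan (ENSMUSG00000030607) at chr7:79053483-79115099 and Sox9 (ENSMUSG00000000567) at chr11:112782224-112787760. Comp (ENSMUSG00000031849) spanned chr8:70373558-70382066 and Snorc (ENSMUSG00000026258) spanned chr1:87470271-87475482. Col9a1 (ENSMUSG00000026147) was found at chr1:24177610-24252684, Matn3 (ENSMUSG00000020583) at chr12:8947929-8972028 and Cytl1 (ENSMUSG00000062329) at chr5:37735519-37739820.

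RefSeq promoter sequences (GRCm38.p6) were at hand for Acan, Col9a1, Matn3 and Cytl1. The 250 bases before the RefSeq start are shown for 3 of them because they set 2 genes with clear signal in these libraries, Acan and Cytl1, beside 1 gene with almost none, Matn3. The Cytl1 and Matn3 windows adjoin the GENCODE starts given above. The Acan window does not, since it ends at 79053225 and the GENCODE start is 79053483. Capitals mark the GC box GGGCGG, searched on both strands with overlaps allowed. The windows are chr7:79052976-79053225, chr5:37735269-37735518 and chr12:8947679-8947928, all on the plus strand and printed 5′ to 3′.
Acan: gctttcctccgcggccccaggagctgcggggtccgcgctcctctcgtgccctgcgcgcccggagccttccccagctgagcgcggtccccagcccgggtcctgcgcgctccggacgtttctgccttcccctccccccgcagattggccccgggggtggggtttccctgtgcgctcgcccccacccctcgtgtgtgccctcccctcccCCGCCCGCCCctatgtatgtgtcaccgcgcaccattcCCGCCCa
Cytl1: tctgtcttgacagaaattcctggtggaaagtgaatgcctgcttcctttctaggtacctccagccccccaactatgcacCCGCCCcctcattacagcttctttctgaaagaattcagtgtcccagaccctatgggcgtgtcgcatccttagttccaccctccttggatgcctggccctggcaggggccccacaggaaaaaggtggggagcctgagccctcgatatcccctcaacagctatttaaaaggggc
Matn3: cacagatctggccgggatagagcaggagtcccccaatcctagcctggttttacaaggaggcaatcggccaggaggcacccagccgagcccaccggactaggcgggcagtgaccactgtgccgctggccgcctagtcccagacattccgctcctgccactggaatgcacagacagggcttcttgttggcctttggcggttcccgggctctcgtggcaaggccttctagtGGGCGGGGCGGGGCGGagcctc
The Acan window held 3 GC boxes and was 74.4% G or C. The Cytl1 window held 1 GC box with 54.8% G or C, and the Matn3 window held 3 overlapping ones with 65.2%. A GC box was present in 32.7% of the 32851 promoter windows of the same length. The SOX core letters ACAAAG and ACAATG, present in 16.5% and 10.7% of all windows, were in none of the windows of these 4 genes, and neither was the TATA box TATAAA, present in 12.4%. A match or its absence describes only the letters of these windows.

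The ND library held 6314 barcodes and the HFD library 6636, with 48558889 and 49940976 unique molecular identifiers (UMIs, each counting 1 captured transcript). After the study's filters, over 500 and under 8000 detected genes and under 20% mitochondrial UMIs, 6029 ND and 6224 HFD cells were kept. The 2 libraries shared 15 barcodes, 14 of them among kept cells and 0 in the chondrocyte-like cells described below. Cells were clustered without the 8 genes and named from marker genes. The mesenchymal-like class, in which all 8 of its markers such as Pdgfra and Col1a1 were detected, held 408 ND cells (6.77% of kept cells) and 668 HFD cells (10.7%). Its median depth was 10660 UMIs per cell in ND and 9541.5 in HFD. RNA of neutrophils was present in this class as well, and the 8 neutrophil markers together reached 17786 UMIs per 1000000 UMIs of the class (UPM) in ND and 8623 in HFD.

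Over all kept cells the 6 better measured genes ranged widely in how many cells carried them. Comp was found in 330 ND and 650 HFD cells (6594 and 13370 UMIs) and Sox9 in 156 and 258 cells (520 and 782 UMIs). Col2a1 was found in 32 ND and 62 HFD cells (360 and 2009 UMIs), Acan in 31 and 67 (99 and 571 UMIs), Cytl1 in 25 and 48 (1084 and 1149 UMIs) and Snorc in 9 and 10 (164 and 61 UMIs). Col9a1 and Matn3 were almost absent. Col9a1 had 10 ND and 9 HFD UMIs and Matn3 had 6 and 6 among all kept cells, too few for any further comparison. Barcodes that failed the filters held 46 ND and 107 HFD UMIs of the 8 genes, against 8837 and 17957 in kept cells.

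Mesenchymal-like cells held most UMIs of these genes. Their share over both libraries was 95.6% for Comp, 95.1% for Snorc, 93.4% for Acan, 91.1% for Sox9, 86.6% for Col2a1 and 83.8% for Cytl1. Of the 6 genes, 5 had their highest level over both libraries in this class. Cytl1 was the exception over both libraries together, but the order differed between them. In ND it stood at 217 UPM in mesenchymal-like and 64.1 in endothelial-like cells, and in HFD at 120 and 265.

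**Figure D1:**
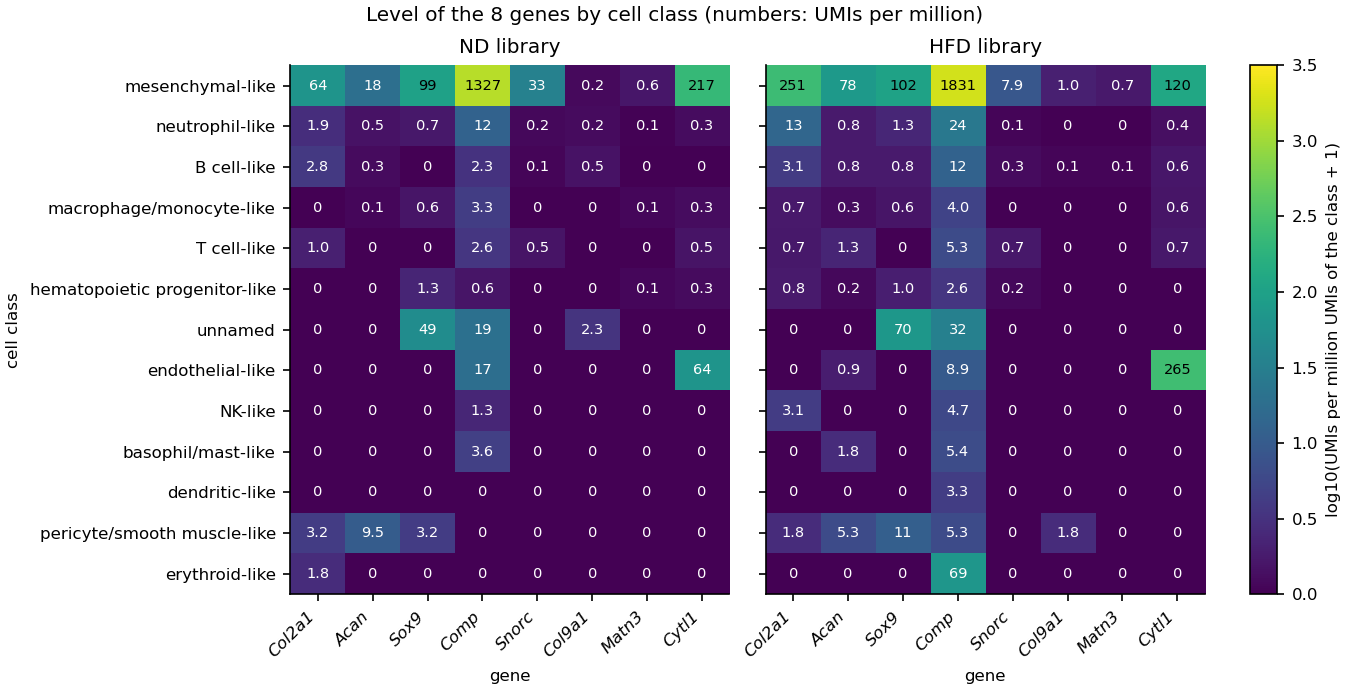
Heat map of the 8 genes (columns) in each cell class (rows), for the ND library on the left and the HFD library on the right. Colour is log10 of the UPM plus 1 and each number is the level in UPM. The mesenchymal-like row carries most UMIs. Outside it the highest values are Cytl1 in endothelial-like cells (64.1 in ND and 265 in HFD), Sox9 in the unnamed class (49.2 and 70.2) and Comp in HFD erythroid-like cells (69.0, with 30 of 33 UMIs in 1 cell).

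Blood cell classes, which should lack these genes, held them at low levels. Over neutrophil-like and B cell-like cells, Comp stood at 8.58 UPM in ND and 20.4 in HFD, against 1327 and 1831 in mesenchymal-like cells. Sox9 stood at 0.458 and 1.17 against 99.3 and 102. Snorc stood at 0.167 and 0.161 and Cytl1 at 0.208 and 0.482, so both were close to 0 outside the classes that carried them. Sox9 had 1 further site, an unnamed class of 203 ND and 154 HFD cells, where it reached 21 and 26 UMIs.

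Among mesenchymal-like cells, clustering without the 8 genes gave a chondrocyte-like subcluster of 24 cells, 8 from ND and 16 from HFD. These were 1.96% of ND mesenchymal-like cells (0.850 to 3.83%, exact Clopper-Pearson interval) and 2.40% of HFD ones (1.38 to 3.86%), 2 intervals that overlap. The name rests on 7 detected markers, Col9a2, Col9a3, Col11a2, Hapln1, Ucma, Chad and Sox5. They were called on the summed cells, and Col9a2 was in 5 of the 24 cells, Col9a3 in 4 and Ucma in 5. Hapln1 was in 20 and Chad in 22. Chad was also high in an unnamed subcluster led by H19 (2798 ND and 4200 HFD UMIs). The osteoblast list scored next, at 2.29 against 2.58 for the chondrocyte list, as mean log2 level over the median subcluster. With the 8 genes left out of the ranking, the genes that led the chondrocyte-like subcluster were Ibsp and Spp1, 2 secreted phosphoproteins best known from bone. In each library 1 cell held most Ibsp UMIs of the subcluster, with 1380 of 1994 in ND and 1431 of 2609 in HFD. Other markers of the chondrocyte list, Matn1, Cnmd and Epyc, were at 0 in it, and so was Col10a1 of hypertrophic cartilage.

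This small subcluster held 94.7% of all Snorc UMIs, 85.5% of Col2a1, 78.4% of Cytl1 and 73.6% of Acan. By contrast it held 34.9% of Comp and 19.4% of Sox9. With each cell given equal weight, the shares were 77.0% for Snorc, 62.7% for Cytl1, 45.8% for Acan and 39.2% for Col2a1, and with cells thinned to 1000 UMIs they were 73.3, 64.8, 41.0 and 47.1%. Without the 5 highest cells of each library for each gene, Col2a1 stood at 50.8%, Acan at 54.9%, Cytl1 at 18.1% and Snorc at 0%. The first 4 genes were measured in few cells, while Comp and Sox9 lay mostly in other mesenchymal-like cells.

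Col2a1 rested on single cells in both libraries. Of 360 ND UMIs, 224 (62.2%) came from 1 cell, and of 2009 HFD UMIs 1080 (53.8%) came from 1 cell. Within the chondrocyte-like subcluster, the cells with any Col2a1 numbered 2 of 8 in ND, with 224 and 77 UMIs. They numbered 6 of 16 in HFD, with 1080, 314, 206, 68, 41 and 15 UMIs. The 10 other HFD cells and the 6 other ND cells had 0, so the median cell of either library had no Col2a1 UMI.

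The HFD cell with 1080 Col2a1 UMIs was unlike the rest in 1 respect. Neutrophil markers made up 10.97% of its 25880 UMIs, 1052 of them from S100a8, a calcium-binding protein of neutrophils. In the 8 ND cells of the subcluster neutrophil markers ranged from 0.0252 to 0.168%, and in the other HFD cells from 0.0385 to 2.08%. Col2a1 was 4.17% of the UMIs of this cell and at most 1.15% of those of any other cell in the subcluster. A pair of HFD barcodes outside it, classed as neutrophil-like, came near that share with 88 and 118 Col2a1 UMIs (4.25 and 5.02% of 2071 and 2349 UMIs), beside 115 and 130 UMIs of S100a8 and 81 and 78 of Col1a1. These 2 barcodes held most of the 225 Col2a1 UMIs of HFD neutrophil-like cells, against 30 UMIs in ND ones. Scrublet, a doublet caller, called none of these 3 barcodes a doublet, but it called only 9 ND and 23 HFD cells in all and was not relied on.

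Acan was spread over more of the chondrocyte-like cells than Col2a1. It had at least 1 UMI in 6 of 8 ND cells (median 1.5, highest 45) and in 12 of 16 HFD cells (median 15.5, highest 127). These counts are not scaled to depth, and the HFD cells were deeper, with a median of 17137 UMIs against 12250.5 in ND. At 5 or more UMIs, Acan marked 2 ND and 10 HFD cells. All 8 cells with 5 or more Col2a1 UMIs were among these 12, and the 4 remaining Acan cells, all from HFD, had 8, 35, 54 and 66 Acan UMIs and no Col2a1.

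Cells with 5 or more Acan UMIs and cells with fewer differed in what else they carried. The 12 cells with 5 or more Acan UMIs had a median of 491.5 Comp UMIs (59 to 955), 110 of Fmod, encoding the collagen-binding proteoglycan fibromodulin (0 to 341), and 321.5 of Col1a1, encoding a type I collagen chain (0 to 4366). The 12 cells below that had medians of 64.5 for Comp (16 to 300), 3 for Fmod (0 to 51) and 9.5 for Col1a1 (1 to 84). Clu, the secreted chaperone clusterin, ran the other way with a median of 2 (0 to 542) against 205 (1 to 551), and Chad, the adaptor chondroadherin, had medians of 13 (1 to 426) and 59 (0 to 225). The Acan cells were deeper, with a median of 25483 UMIs against 10424, and the part of this gap in depth in the values was not tested. The split used Acan itself and is given without a test.

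**Figure D2:**
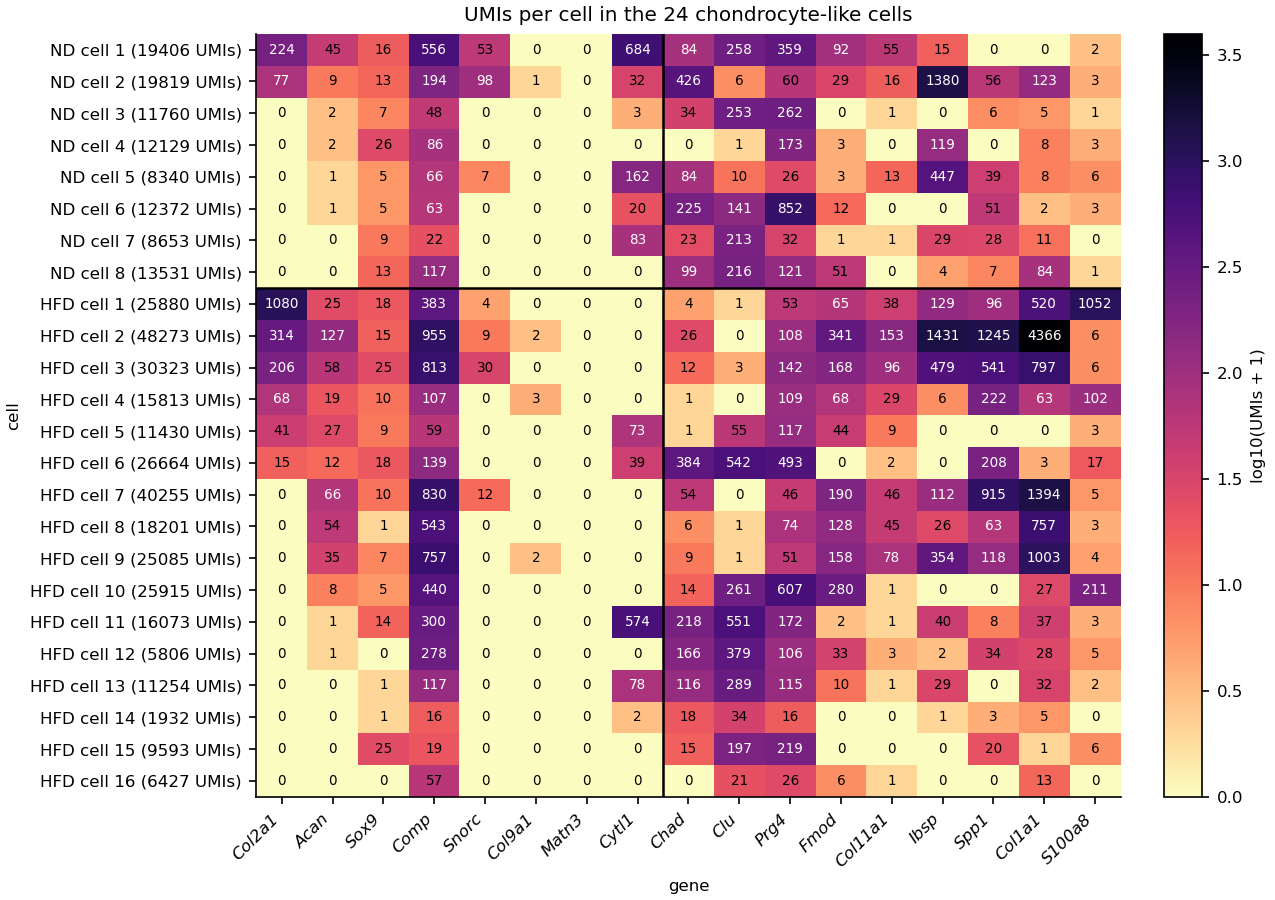
UMIs of each gene (columns) in each of the 24 chondrocyte-like cells (rows, with total UMIs), 8 ND cells above the line and 16 HFD cells below it, ordered by Col2a1. The 8 genes of the report stand left of the vertical line and 9 other genes right of it, with colour showing log10(UMIs + 1). Col2a1 is confined to 2 ND and 6 HFD rows, Comp is in every row, and cells high in Clu mostly have under 5 Acan UMIs.

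Snorc was seen in fewer cells still. In ND it had 98, 53 and 7 UMIs in 3 chondrocyte-like cells and 1 UMI in other mesenchymal-like cells. In HFD it had 30, 12, 9 and 4 UMIs in 4 chondrocyte-like cells and 0 in the 652 other mesenchymal-like cells, which allows a level of up to 0.452 UPM there. The ND cells with 98 and 53 UMIs were also the 2 ND cells with Col2a1. Of the 6 cells with 5 or more Snorc UMIs, all had 5 or more UMIs of Sox9 and Comp, 5 of Acan, 4 of Col2a1 and 3 of Cytl1.

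Cytl1 was high in a few cells that were not always those with Col2a1. A single ND cell had 684 of 1084 UMIs (63.1%) and a single HFD cell 574 of 1149 (49.96%). The ND cell was also the highest for Col2a1 in its library, while the HFD cell had 0 Col2a1, 1 Acan, 14 Sox9 and 218 Chad UMIs. In the chondrocyte-like subcluster, 6 of 8 ND cells and 5 of 16 HFD cells had any Cytl1. Of the 9 cells with 5 or more Cytl1 UMIs, 4 also had 5 or more of Col2a1.

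Sox9 was even by comparison. Every one of the 8 ND chondrocyte-like cells had it (5 to 26 UMIs, median 11), as did 14 of 16 HFD cells (0 to 25, median 9.5). Comp was in all 24 cells, from 22 to 556 UMIs in ND (median 76) and from 16 to 955 in HFD (median 289), again without scaling to the greater depth of the HFD cells. The values of ND and HFD cells overlapped for each of these 6 genes. Since the subcluster had fewer than 20 ND cells, no ratio between diets was formed in it.

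**Figure D3:**
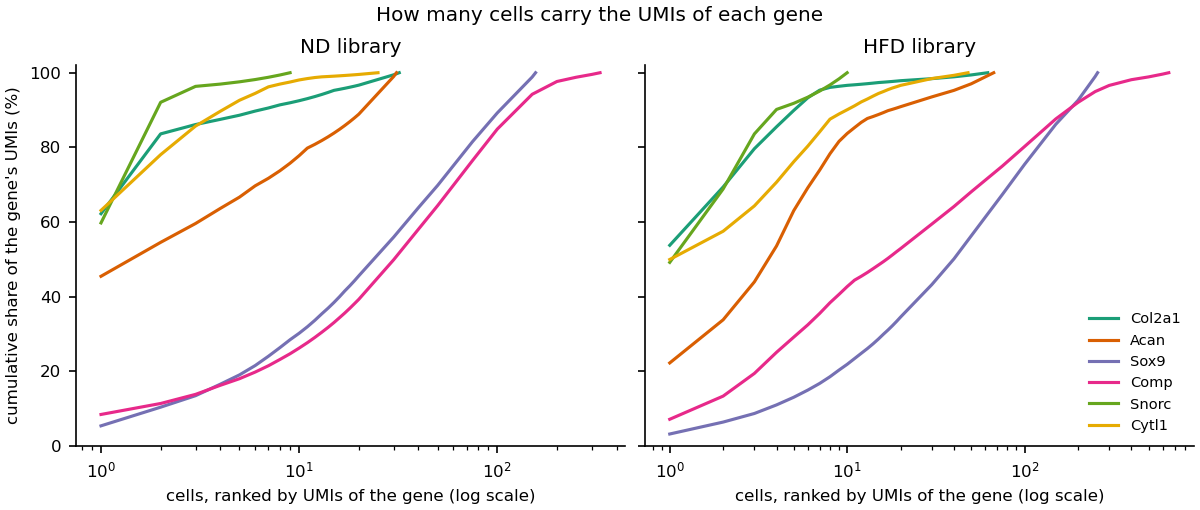
Cumulative share of each gene's UMIs (vertical axis, %) against the number of cells ranked by their UMIs of that gene (horizontal log axis), for ND on the left and HFD on the right. The curves of Col2a1, Snorc and Cytl1 start at 49.2% or more with the first cell, and those of Comp and Sox9 start at 8.43% or less.

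Comp was a gene of many mesenchymal-like cells. It was detected in 56.1% of ND cells of the class (51.2 to 61.0%) and 60.6% of HFD cells (56.8 to 64.4%). After random thinning of the cells to 1000 UMIs each, for which 4 HFD cells were too shallow, the shares were 39.7% (34.9 to 44.6%) and 38.6% (34.8 to 42.4%). In neutrophil-like cells the thinned shares were 0.625 and 1.32%. Sox9 had shares of 32.8 and 33.5% before and 9.31 (6.68 to 12.6) and 9.49% (7.37 to 12.0) after thinning. The intervals of ND and HFD overlapped for both genes.

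Levels of Comp differed widely between subclusters of mesenchymal-like cells. Next to the chondrocyte-like cells (10867 UPM in ND and 18227 in HFD), it was highest in tenocyte-like cells (2217 and 1844) and in an unnamed subcluster led by H19, Wnt16 and Nppc (1819 and 1985). It was at 1654 and 1013 in fibroblast-like cells marked by Ccl11 and Col15a1, at 1022 and 1381 in an unnamed subcluster led by the neutrophil gene Retnlg, at 685 and 775 in osteoblast-like cells (506 and 420 without the highest cell of each library), at 264 and 266 in Pi16/Dpp4 fibroblast-like cells and at 161 and 147 in synovial lining-like cells, where 21 of 22 ND and 39 of 48 HFD UMIs were in 1 cell each. In HFD the intervals of the last 3 did not overlap (724 to 828, 239 to 296 and 109 to 195). Tenocyte-like cells and the H19-led subcluster overlapped in HFD (1692 to 2006 and 1910 to 2062) but not in ND (1956 to 2502 and 1736 to 1904). The ND tenocyte-like cells numbered only 8, with 78 of their 261 Comp UMIs in 1 cell. These intervals leave out the spread between cells, so they do not order the subclusters.

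Sox9 varied less among the non-chondrocyte subclusters. It was highest in chondrocyte-like cells (887 UPM in ND and 499 in HFD), followed by synovial lining-like cells (161 and 175), which had 0 Acan UMIs. In ND a single synovial lining-like cell held 16 of the 22 Sox9 UMIs, so the ND rank of these cells is not read. In HFD the highest such cell held 10 of 57. Sox9 ran from 33.3 to 124 in ND and from 48.5 to 103 in HFD in the other 6 subclusters. Sox9 was detected in 13 of 16 HFD and 6 of 7 ND synovial lining-like cells, and in 42 of 128 HFD and 19 of 56 ND osteoblast-like cells. These shares are not scaled to depth. The median was 18937.5 (HFD) and 17709 UMIs (ND) in synovial lining-like cells, against 7238 and 7516.5 in osteoblast-like cells.

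Acan outside the chondrocyte-like cells was mainly in osteoblast-like cells, marked by Bglap, Ibsp and Alpl. There it had 21 UMIs in 10 of 56 ND cells (42.5 UPM, 26.3 to 65.0) and 99 UMIs in 24 of 128 HFD cells (89.8, 73.0 to 109). A single HFD cell carried 55 of the 99. Acan had 0 UMIs in the Pi16/Dpp4 fibroblast-like cells of both libraries, which allows up to 2.50 UPM in ND and 2.30 in HFD, and 0 in synovial lining-like cells. Col2a1 in osteoblast-like cells was 0 in ND and 6 UMIs in HFD.

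**Figure D4:**
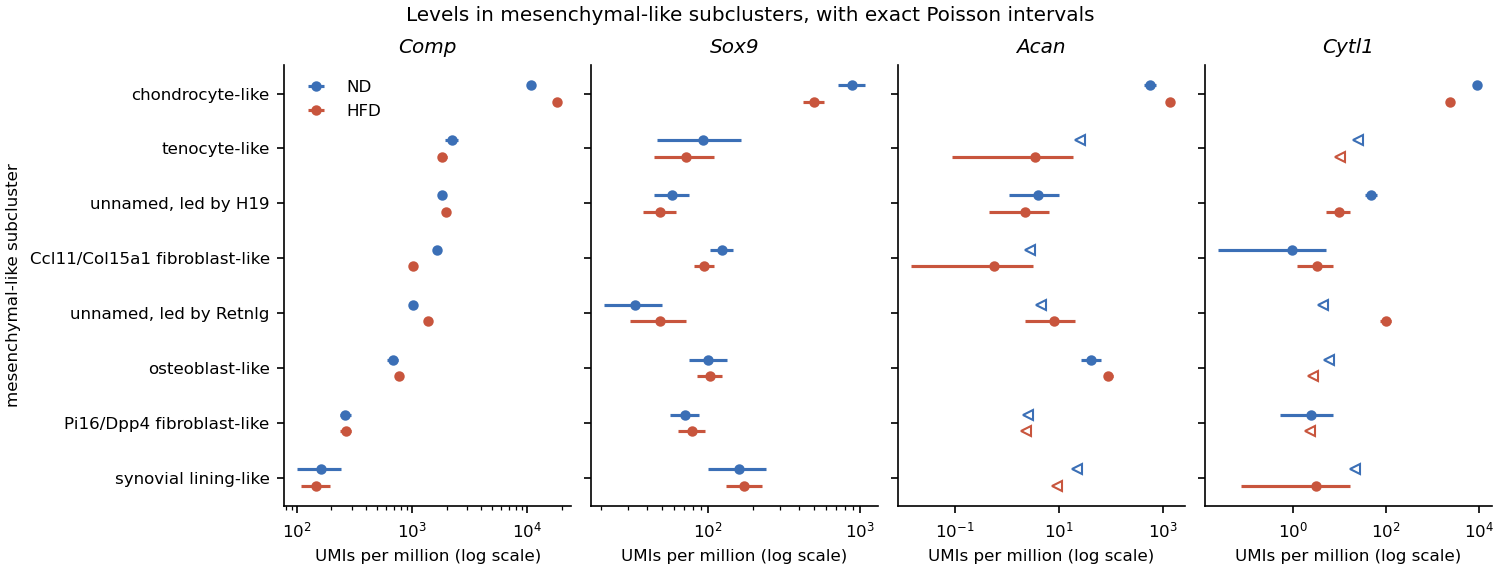
Levels of Comp, Sox9, Acan and Cytl1 (one panel each) in UPM on a log axis, by mesenchymal-like subcluster, with ND in blue and HFD in red. Points are the level with its exact 95% Poisson interval for counting error, and open triangles stand at the limit that a count of 0 allows. All 4 genes are highest in the chondrocyte-like cells, and Acan is next in osteoblast-like cells at 42.5 (ND) and 89.8 (HFD).

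The genes whose levels ran most like each member over 18 points, 9 subclusters (2 of them sharing the Ccl11/Col15a1 name) in each of 2 libraries, were picked by Pearson's r of log2(UPM + 10) among 10772 other genes. These r describe points that share cells and depth. For genes almost confined to the chondrocyte-like subcluster, such as Snorc, r rests on the 2 points of that subcluster. Col9a3, with 72 of its 74 UMIs there, was also one of its naming markers. For Col2a1 the nearest genes were Meltf (0.99), Col9a3 (0.96) and Mfge8 (0.96). Snorc was nearest to Col9a3 (0.99), Clec3a (0.97) and Meltf (0.96), and Cytl1 to Clec3a (0.98), Egln3 (0.95) and Col9a3 (0.94). Acan was nearest to Hapln1 (0.98), encoding the link protein that ties aggrecan to hyaluronan, then to Cgref1 (0.95) and Cox4i2 (0.93). Sox9 was nearest to Slc29a1 (0.93), Cemip (0.86) and Col9a3 (0.84), and Comp to Clu (0.91), Fibin (0.91) and Ecrg4 (0.88). Col9a1 and Matn3 had 8 UMIs each in the class and were not compared.

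Between the libraries, mesenchymal-like cells of HFD had more Col2a1 and Acan and less Snorc than those of ND. Of the 8 genes, 6 had the 20 UMIs set as a minimum. Of these, 2 were past 2-fold higher and 1 past 2-fold lower, and 2-fold differences of that size were seen in 2.5% (higher) and 2.05% (lower) of the 12614 genes compared in the class. The median log2 ratio of the 6 genes was 0.25 and that of all genes 0.05.

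Col2a1 went from 304 UMIs in ND (63.7 UPM) to 1747 in HFD (251 UPM), a log2 ratio of 1.98 (1.80 to 2.16). Acan went from 85 (17.8 UPM) to 541 (77.7), a log2 ratio of 2.12 (1.79 to 2.47). Snorc went from 159 (33.3 UPM) to 55 (7.90), a log2 ratio of -2.07 (-2.55 to -1.63). Without the highest 5% of doublet scores, which took out 1 ND chondrocyte-like cell, it was -0.85 and no longer past 2-fold. Cytl1 was lower in HFD by less than 2-fold, from 1037 (217 UPM) to 835 (120), a log2 ratio of -0.86 (-0.99 to -0.72). Comp went from 6336 (1327 UPM) to 12749 (1831), a log2 ratio of 0.46 (0.42 to 0.51). Sox9 was level, with 474 UMIs (99.3 UPM) in ND, 712 (102) in HFD and a log2 ratio of 0.04 (-0.13 to 0.21). Col2a1 and Snorc, which lay largely in the same subcluster, ran in opposite directions between the libraries. That subcluster held 106010 of the 4773732 UMIs of the class in ND and 318924 of 6963090 in HFD. Per UMI of its own cells, Col2a1 stood at 2839 UPM in ND and 5406 in HFD. Acan stood there at 566 and 1358, Snorc at 1490 and 172 and Cytl1 at 9282 and 2402. These levels rest on few cells and were not made into ratios. A single cell held 98 of the 158 ND Snorc UMIs there. For Cytl1 a single cell held 684 of 984 UMIs in ND and 574 of 766 in HFD. With the same subcluster weights in both libraries, Col2a1 was higher in HFD by less than 2-fold.

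The size of the Col2a1 difference depended on which cells were counted. When the 43 ND and 40 HFD mesenchymal-like cells with over 1% of UMIs from neutrophil markers were left out, 3 of them chondrocyte-like, Col2a1 stood at 304 UMIs in ND and 599 in HFD and its log2 ratio was 0.28. The ratios of the others under this setting were 1.84 for Acan, -2.32 for Snorc, -1.09 for Cytl1, 0.35 for Comp and -0.14 for Sox9. Leaving out only the highest cell of each library for each gene gave 2.51 for Col2a1 (80 and 667 UMIs), 2.81 for Acan (40 and 414) and -1.81 for Snorc (61 and 25).

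With the 5 highest cells of each library left out, Snorc had 1 ND and 0 HFD UMIs left in the class. Col2a1 had 3 ND and 147 HFD UMIs left, the latter with 68, 41 and 15 in 3 chondrocyte-like cells, since 2 of the 5 highest HFD cells were the neutrophil-like barcodes. Acan kept a log2 ratio of 2.68 (19 and 181 UMIs), and Cytl1 turned to 1.16 (33 and 110 UMIs). Without the whole chondrocyte-like subcluster, 2 genes were past 2-fold higher, beside 2.37% of all genes, and none of the 5 with enough UMIs was past 2-fold lower, beside 2.18%. One of the 2 was Col2a1, with 3 and 23 UMIs (0.643 and 3.46 UPM), against 2.17 and 10.0 UPM over neutrophil-like and B cell-like cells. Most of that HFD blood cell level came from the 2 neutrophil-like barcodes. In cells with under 5 Col2a1 UMIs it was 1.56 (ND) and 0.818 UPM (HFD) in neutrophil-like and 1.64 and 2.32 in B cell-like cells. The HFD level of 3.46 UPM was above these, but it rested on 23 UMIs with at most 3 per cell, so nothing is read from it. Comp stood at -0.09 and Sox9 at 0.03, and Acan at 1.58 from 25 ND and 108 HFD UMIs. Comp was higher in HFD with the chondrocyte-like cells included and not without them, and its interval there was -0.14 to -0.04. Of the 108 HFD Acan UMIs, 55 were in 1 osteoblast-like cell, and without the highest cell of each library its log2 ratio was 0.88 (20 and 53 UMIs), under 2-fold. Over all mesenchymal-like cells, thinning to 1000 UMIs gave 0.75 for Acan.

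**Figure D5:**
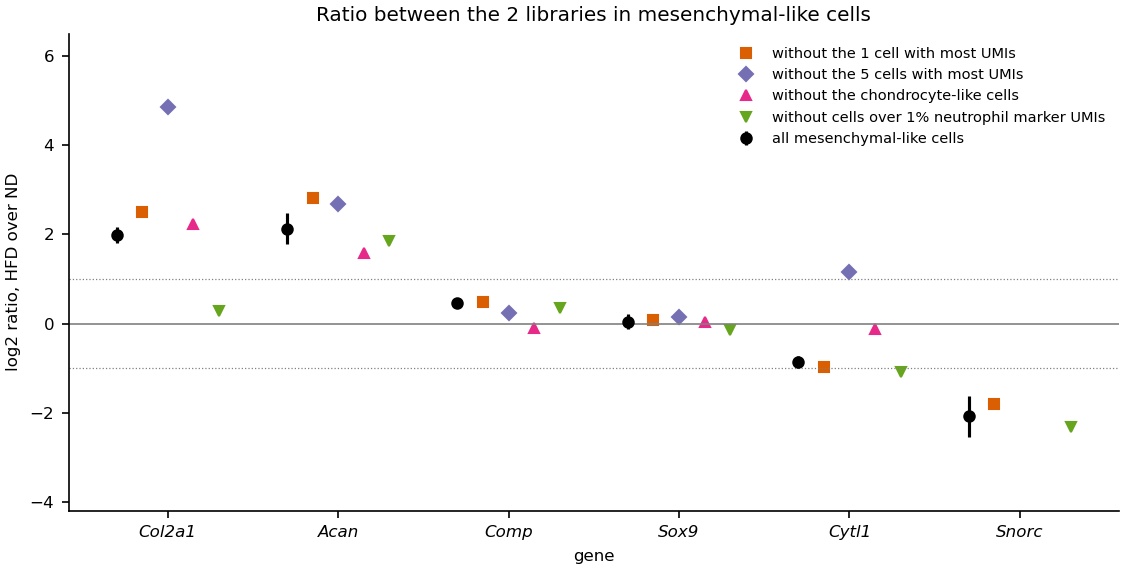
Log2 ratio of HFD over ND (vertical axis) in mesenchymal-like cells for 6 genes, black for all cells with 95% counting intervals, and coloured symbols for the same ratio with the cells named in the legend left out. Dotted lines mark 2-fold. Col2a1 moves between 0.28 and 4.86 and Cytl1 between -1.09 and 1.16, while Sox9 stays between -0.14 and 0.15. Snorc has no point where under 20 UMIs were left.

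Within subclusters that had at least 20 cells in each library, ratios of Sox9 lay within 2-fold in all 5. Its log2 ratios were 0.02 (-0.46 to 0.54) in osteoblast-like, 0.15 in Pi16/Dpp4 fibroblast-like, -0.39 in Ccl11/Col15a1 fibroblast-like cells, -0.26 in the H19-led subcluster and 0.54 in the Retnlg-led one. Comp stayed within 2-fold in the same 5, from -0.71 (-0.80 to -0.61) in Ccl11/Col15a1 fibroblast-like cells to 0.43 (0.28 to 0.59) in the Retnlg-led subcluster. Of all genes in the Ccl11/Col15a1 fibroblast-like cells 3.66% were past 2-fold higher and 1.79% lower, and in the Pi16/Dpp4 fibroblast-like cells 2.68 and 2.67%. In the H19-led subcluster 3.08% were higher, in osteoblast-like cells 3.07% were lower, and in the Retnlg-led subcluster 3.69% were higher and 3.77% lower. There Cytl1 had 0 ND and 49 HFD UMIs, 48 of them in 1 cell. Acan in osteoblast-like cells had a log2 ratio of 1.05 (0.39 to 1.83), and 4.05% of all 7513 genes compared there were past 2-fold higher. Without its highest cell in each library, Acan had 16 ND and 44 HFD UMIs there (33.5 and 41.6 UPM), a log2 ratio of 0.28 that was no longer past 2-fold. Comp in the same cells had 338 ND and 854 HFD UMIs, 409 of the latter in 1 cell, and its log2 ratio of 0.18 (-0.01 to 0.36) became -0.27 without the highest cells. Cytl1 in the H19-led subcluster fell by 2.30 on the log2 scale (49 ND and 13 HFD UMIs), where 2.19% of genes were past 2-fold lower, but 43 of the 49 UMIs were in 1 cell.

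In endothelial-like cells, Cytl1 was the member with the highest level. It was found in 4 of 117 ND and 20 of 232 HFD cells, with 37 and 297 UMIs (64.1 and 265 UPM). The log2 ratio was 2.03 (1.55 to 2.58), and 3.37% of 7768 genes in the class were past 2-fold higher. The cells with 5 or more UMIs numbered 3 in ND, the highest with 19, and 12 in HFD, the highest with 87. The 5 highest HFD cells held 75.1% of the UMIs. Col2a1, Sox9 and Snorc had 0 UMIs in these cells in both libraries, Acan had 0 and 1, and Comp had 10 and 10.

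The low levels of Comp in blood cells differed between the libraries too. Comp in neutrophil-like cells was 11.7 UPM in ND and 24.3 in HFD, a log2 ratio of 1.05 (0.80 to 1.31), and in B cell-like cells 2.27 and 11.7, a log2 ratio of 2.34 (1.63 to 3.19). Past 2-fold higher were 1.79% and 1.36% of genes in these classes. The neutrophil-like UMIs were not even, since 138 of 188 ND UMIs were in 5 cells and 302 of 416 HFD UMIs in 10 cells with 5 or more each. In the other neutrophil-like cells Comp stood at 3.13 and 6.70 UPM. Subtracting the level over neutrophil-like and B cell-like cells left the Comp ratio of mesenchymal-like cells at 0.46. That level, 8.58 UPM in ND and 20.4 in HFD against 1327 and 1831, was too small to move the ratio, so nothing is read from this.

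The other 52 genes of cartilage were listed by role with results of these libraries known. Of 43 with 20 UMIs in mesenchymal-like cells, 5 were past 2-fold higher in HFD (11.6%, beside 2.5% of all genes) and 3 past 2-fold lower (6.98%, beside 2.05%), with a median log2 ratio of 0.19. Without the chondrocyte-like subcluster, 4 of 40 were past 2-fold higher, beside 2.37% of all genes, and 1 of 40 past 2-fold lower, beside 2.18%.

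Among the 7 collagens, Col11a2, whose product nucleates type II fibrils, was 2.08 higher on the log2 scale (40 and 249 UMIs), with 26 and 169 of these UMIs in chondrocyte-like cells. Col11a1 stood at 0.88 (696 and 1870) and Col16a1 at 0.19 (577 and 963). Among the 12 proteoglycans, link proteins and adaptors, Hapln1 was 1.38 higher (51 and 195 UMIs). Chad stood at -0.11 (4536 and 6144) and Prg4, encoding the joint lubricant lubricin, at 0.61 (28230 and 62845). Synovial lining-like cells held 10404 ND and 51402 HFD UMIs of Prg4, with 12087 of the latter in 1 cell. In ND 12022 Prg4 UMIs lay in the Retnlg-led subcluster, 8264 of them in 1 cell.

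Of the 7 secreted and membrane proteins, the 5 measured ones split. Scrg1 was 1.82 higher (51 and 265 UMIs), 271 of its 316 UMIs being in chondrocyte-like cells. Cnmd (chondromodulin, an inhibitor of vessel growth) fell by 2.79 (97 and 20 UMIs), Mia by 1.92 (19 and 7) and Ucma by 1.63 (26 and 12). Cnmd was not a gene of the chondrocyte-like cells, where it was at 0, and 80 of its ND UMIs lay in the H19-led subcluster. A single ND cell had 13 of the 19 UMIs of Mia, and a single ND cell had 16 of the 26 of Ucma.

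Of the 7 transcription factors, Sox6, a partner of SOX9, was 1.56 higher (15 and 66 UMIs), while Sox5 stood at 0.01 (110 and 162) and Trps1 at 0.15 (407 and 661). None of the 4 measured growth plate signals and none of the 7 sulfation genes was past 2-fold. Pth1r, the receptor of parathyroid hormone and its related peptide, stood at 0.48 (370 and 755 UMIs), Pthlh, which encodes that peptide, at 0.25 (262 and 455), Chsy1 at 0.19 (108 and 180) and Xylt1 at 0.31 (98 and 177). Of the 5 genes of matrix cleavage, Mmp13, a collagenase, was 1.32 higher (858 and 3133 UMIs). Osteoblast-like cells held 833 and 2984 of these UMIs and chondrocyte-like ones 1 and 0. The osteoblast-like share of the class was larger in HFD (19.2% by cell number, with 1102480 UMIs) than in ND (13.7%, with 493733 UMIs). How much of the Mmp13 ratio came from this mix was not tested. Timp3 stood at 0.29 (2405 and 4294) and Htra1 at 0.08 (1941 and 2996).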

How the data were processed

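The deposited files were sparse tables of UMI counts per gene and cell, made by the authors from 10x Genomics 3′ libraries of digested periosteum with Cell Ranger 6.0.1 on mm10 (per the labels' processing notes). They were raw counts, 1 table per diet. Cells were filtered by the study's limits (over 500 and under 8000 genes, under 20% mitochondrial UMIs). SCTransform with regression of cell cycle scores and Louvain clustering were run in Seurat 5.3.0 (30 components, resolution 0.5), and mesenchymal-like cells were clustered again (20 components, resolution 0.8), with the 8 genes left out of the variable features. A cluster was named from at least 3 detected markers. Levels are UMIs per 1000000 UMIs of the class (UPM), summed over cells, with exact Poisson intervals. Log2 ratios are HFD over ND with 0.5 UMI added, for genes with at least 20 UMIs, and carry exact conditional binomial intervals. With 1 library per diet there was no test. The ratio was checked on simulated counts drawn independently for each gene, so the check does not cover genes whose UMIs lie in few cells. Scrublet (scanpy 1.11.5) called under 0.5% of cells, so doublets were not removed.

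The 8 genes, the lists and the alternatives were chosen with earlier results of these data known. Genes named beside the 8 are, of each group of the cartilage list, the 2 with most UMIs and those past 2-fold, and for each of the 8 the 3 most alike over subclusters. Genes that describe single cells of the chondrocyte-like subcluster were chosen after its values were seen.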

Additional observations from a re-analysis of the deposited data

Results flagged for a closer look

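Ratios between the libraries ran in opposite directions in different cells for 2 genes, with counting intervals on either side of no difference. The difference between cell groups was not tested, since each diet is 1 library. Comp had log2 ratios of 0.13 in the H19-led subcluster and 0.43 in the Retnlg-led one, against -0.71 in Ccl11/Col15a1 fibroblast-like cells. Cytl1 had 2.03 in endothelial-like cells and -2.30 in the H19-led subcluster, where 43 of its 49 ND UMIs were in 1 cell.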

How the results depend on the processing

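Settings were changed 1 at a time, 14 of them set beforehand for the diet comparison and 4 added after seeing the data (the highest cell, the chondrocyte-like subcluster, the highest 5% of doublet scores or cells with over 1% neutrophil marker UMIs left out). Subcluster resolutions of 0.4 and 1.2 and a minimum of 50 UMIs could not change a ratio over mesenchymal-like cells. They are in the counts below but say nothing on direction. The same holds for adding 1 UMI instead of 0.5 and, for Comp, for subtracting the blood cell level. For Col2a1, nothing is read from leaving out the chondrocyte-like subcluster (3 ND and 23 HFD UMIs left). Leaving out the 5 highest cells (3 and 147 left) took out every ND chondrocyte-like cell with Col2a1 but not every HFD one. The Col2a1 direction there is not read either. Col2a1 kept its direction in 18 of 18 (log2 0.28 to 4.86), Acan in 18 of 18 (0.75 to 2.81) and Snorc in the 15 that left 20 UMIs (-3.10 to -0.85). Comp kept its direction in 17 of 18 (-0.09 to 0.50), Cytl1 in 17 of 18 (-1.78 to 1.16) and Sox9 in 13 of 18 (-0.26 to 0.15). The count of genes past 2-fold higher in HFD, 2 in the report, became 1 with cells thinned to 1000 UMIs, where Col2a1 remained. It also became 1 with the same subcluster weights in both libraries and without cells rich in neutrophil markers, where Acan remained and Col2a1 was under 2-fold. It rose without the 5 highest cells, where Cytl1 (1.16) joined Col2a1 and Acan. The count past 2-fold lower, 1 in the report, became 2 with equal weight per cell, with the same subcluster weights and without cells rich in neutrophil markers (Snorc and Cytl1). With thinned cells it was 1, but the gene was Cytl1. It became 0 without the 5 highest cells, without the highest 5% of doublet scores, which took out 1 ND chondrocyte-like cell, and without the chondrocyte-like subcluster. The count of genes highest in mesenchymal-like cells, 5 in the report, became 3 without that subcluster. Leaving out the highest cell of each library within a subcluster, also chosen after seeing the data, ended the Acan call in osteoblast-like cells (1.05 to 0.28). The causes were not tested. The chondrocyte-like subcluster had 23 or 24 cells in all 6 clusterings, the reported one among them, and all of these cells were in the reported subcluster.

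No paired analysis was possible because the tables carry no replicate numbers, and no replicate was left out for the same reason. Col9a1 and Matn3 had too few UMIs to be compared, for reasons that were not tested, and 8 ND chondrocyte-like cells limit every statement on that subcluster.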

Other observations

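Endothelial-like cells with Cytl1 were set beside the others for 10 vessel genes, chosen after Cytl1 was seen there and given without a test. With cells thinned to 1000 UMIs, Bmx had a UMI in 6 of 15 cells with 5 or more Cytl1 UMIs and in 10 of 322 other endothelial-like cells, and Gja5 in 2 of 15 and 3 of 322. Gja4 was seen in 2 of 15 and 16 of 322, Sox17 in 4 of 15 and 78 of 322, Efnb2 in 4 of 15 and 35 of 322, Hey1 in 1 of 15 and 24 of 322 and Vwf in 5 of 15 and 23 of 322. Emcn, a gene of capillaries and veins, was seen in 2 of 15 and 132 of 322, Nr2f2 of veins in 0 of 15 and 16 of 322 and Ackr1 of venules in 1 of 15 and 5 of 322. The 15 cells, 3 from ND and 12 from HFD, had a median of 5645 UMIs before thinning and the others 4045.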
